A study of Mus musculus with 13 samples.

Results

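Embryonic diapause is a reversible pause of the blastocyst before it implants. In mice it can be imposed in the uterus by removing the ovaries, which takes away the hormonal signal for implantation, and a related pause can be imposed in culture by limiting nutrients. Growth signalling through the kinase mTOR, which senses amino acids and glucose, is lowered in paused embryos. The comparison described here sets blastocysts paused in a medium with reduced nutrients against blastocysts paused by ovariectomy, and addresses how far the transcripts of the ways of pausing differ.

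The groups compared here were whole wild-type blastocysts of the B6D2F1 background, a mix of C57BL/6 and DBA2J. The reduced KSOM group (n = 3) held embryos of embryonic day 5.5 kept in KSOM, a defined salt and energy-source medium widely used for early mouse embryos, with less arginine, leucine, isoleucine, lysine, glucose and lactate. The OVX group (n = 2) held day 5.5 embryos of ovariectomised mothers. These 5 libraries, of 13 in the series, were chosen by their labels, and no measured value entered the choice. A further pair of groups serves as reference points, E4.5 blastocysts of mothers on a normal diet (n = 2) and day 5.5 blastocysts in KSOM depleted of protein and carbohydrate components (depleted KSOM, n = 2). The fit also held starvation blastocysts (day 5.5, wild type, n = 2) and day 5.5 blastocysts of ovariectomised mothers with Nprl2 and Tsc2 knocked out (n = 2), of which no value is given. The labels name no group in complete KSOM, so culture and the lack of nutrients cannot be told apart. Whether replicates came from different mothers or dishes is not said either, so the p-values reflect no more than the spread among these libraries, which may be technical. Embryo sex is not given, and the pair of OVX libraries is named in different styles.

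The 5 libraries held 44027959 to 70703883 counts. The embryo identity of the material was visible in each of them through the epiblast factor Pou5f1 (9.48 to 20.9 scaled read counts as CPM, counts divided by library size), the trophectoderm factor Cdx2 (11.1 to 24.7 CPM) and the primitive endoderm factor Gata4 (6.21 to 11.8 CPM). Each of these ranges overlapped between the OVX and reduced KSOM libraries. The OVX replicates differed more from each other than the reduced KSOM replicates did, with a median SD over genes of 0.45 against 0.27 in log2 CPM. Markers of other tissues also separated the libraries. Summed CPM of 20 skeletal muscle genes was 1559 in OVX replicate 1 and 172 in OVX replicate 2, against 1345, 1613 and 1166 in reduced KSOM. The muscle sums were 377 and 191 in E4.5 and 180 and 208 in depleted KSOM, so OVX replicate 2 was near those groups. Of its 172 CPM, the gene Mylpf alone gave 132. For 20 neutrophil genes the sums were 726 and 199 in OVX and 1515, 2082 and 1495 in reduced KSOM. Their part in the results was not tested, and the count of calls is also given without OVX replicate 1.

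**Figure D1:**
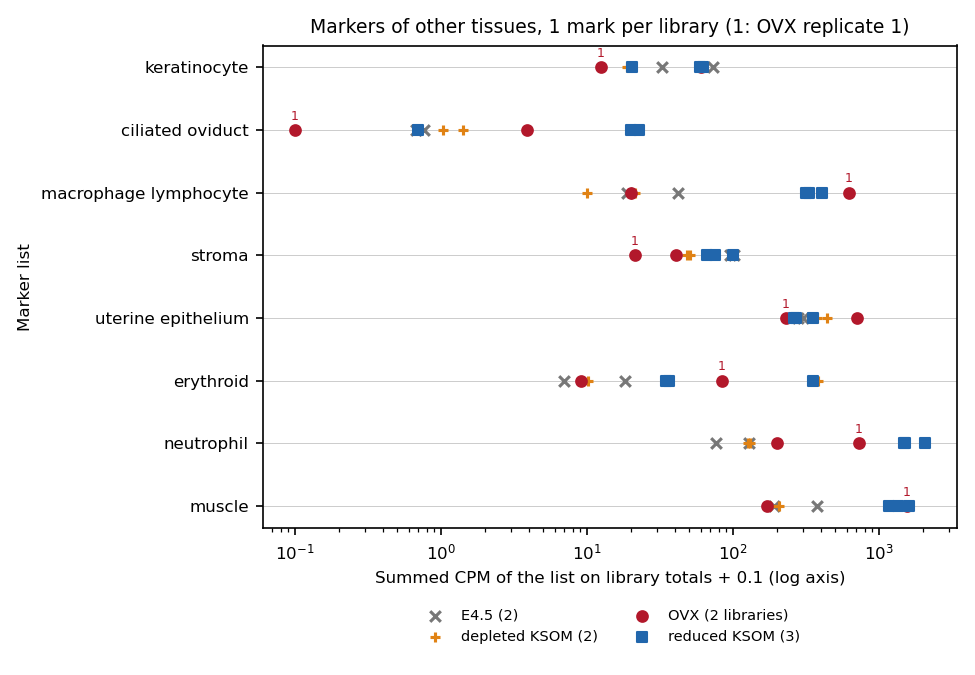
Summed CPM (on library totals, plus 0.1, log axis) of 8 lists of marker genes for tissues outside the embryo, 1 mark per library for OVX, reduced KSOM, E4.5 and depleted KSOM, with OVX replicate 1 marked. Muscle sums were 1559 CPM in OVX replicate 1, 1166 to 1613 CPM in reduced KSOM and 172 CPM in OVX replicate 2.

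Few genes passed edgeR's test between the groups, and most of those that did were lower in reduced KSOM. Of 21808 genes tested, 44 passed an adjusted p of 0.05 (edgeR's quasi-likelihood test, Benjamini-Hochberg adjustment), which is 0.202% of all. Of these, 5 were higher (0.0229%) and 39 lower (0.179%) in reduced KSOM, so that 11.4% of calls were higher. The higher genes were Aldh1l1, mt-Nd3, Aldh2, mt-Nd4l and Perp. The lower genes were led by fold change by the protease-like gene Ctsll3, the lipid droplet gene Cidea and the secreted epithelial protein gene Dmkn. In none of the 44 did a library of one group reach into the range of the other, a pattern that 6675 genes, 30.6% of those tested, also showed (16.8% higher and 13.8% lower in reduced KSOM). At an unadjusted p under 0.05, 956 genes were higher and 1111 lower, and over the whole set of tested genes the log2 fold change had a median of 0.08.

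The number of calls rested on the test and on single libraries. DESeq2 called 721 genes, 51.0% of them higher, and limma on log2(FPKM + 1) called 141, 61.7% of them higher. Without OVX replicate 1 there were 229 calls, 84 higher and 145 lower, among them 42 of the 44, with Perp and Actr2 lost. Of those 84 higher calls 18 were members of marker lists for tissues outside the embryo, among them the neutrophil granule genes Ngp and Ltf, the macrophage gene C1qb and the muscle actin gene Acta1. Without OVX replicate 2 there were 39 calls, with 23 of the 44, and all 5 higher genes were among the 21 lost. The named lower genes lost without it were Gstm5, Nid1, Tinagl1, Slc39a1, Slc44a4, H1f0, Gch1 and Glipr1, at adjusted p of 0.0652 to 0.248. The fold change of 14 of the 44 moved by over 1.5 times when 1 OVX library was left out. Without reduced KSOM replicate 1 or 2 no gene passed, at 1444 and 1497 genes with an unadjusted p under 0.05, and without replicate 3 a single gene, Tmem37, did. All 44 kept their direction in each of these settings. As the groups do not overlap in any of the 44, leaving out a library could hardly reverse a direction.

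**Figure D2:**
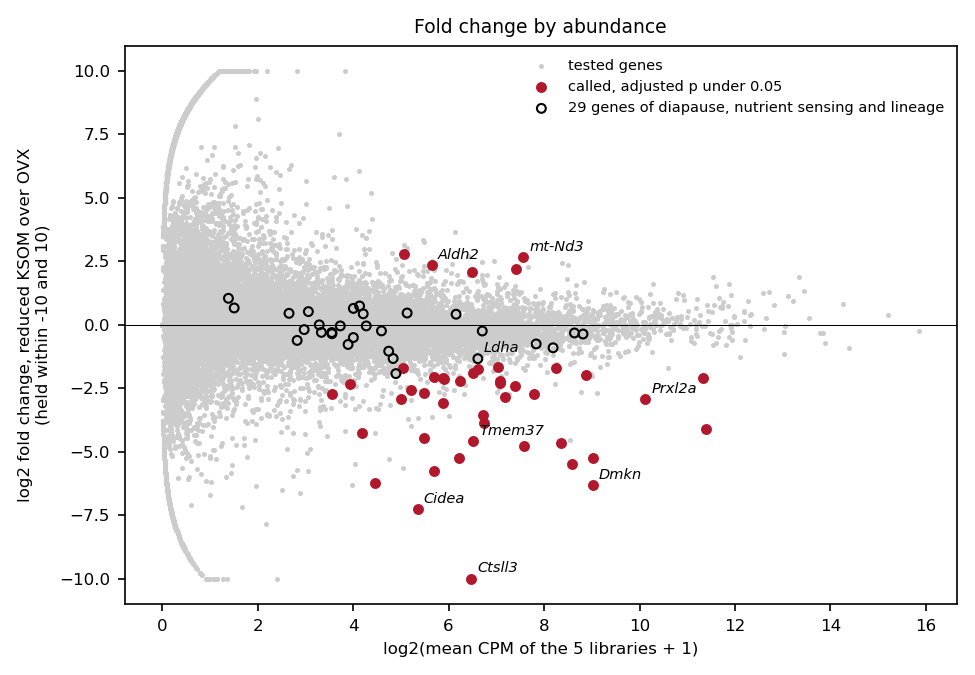
Log2 fold change of each tested gene (reduced KSOM over OVX, with larger changes drawn at the edge) against log2 of the mean CPM of the 5 libraries plus 1. Red points are the 44 called genes, 39 of them below 0, and open circles are 29 genes of diapause, nutrient sensing and lineage, none of which passed the test.

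**Figure D3:**
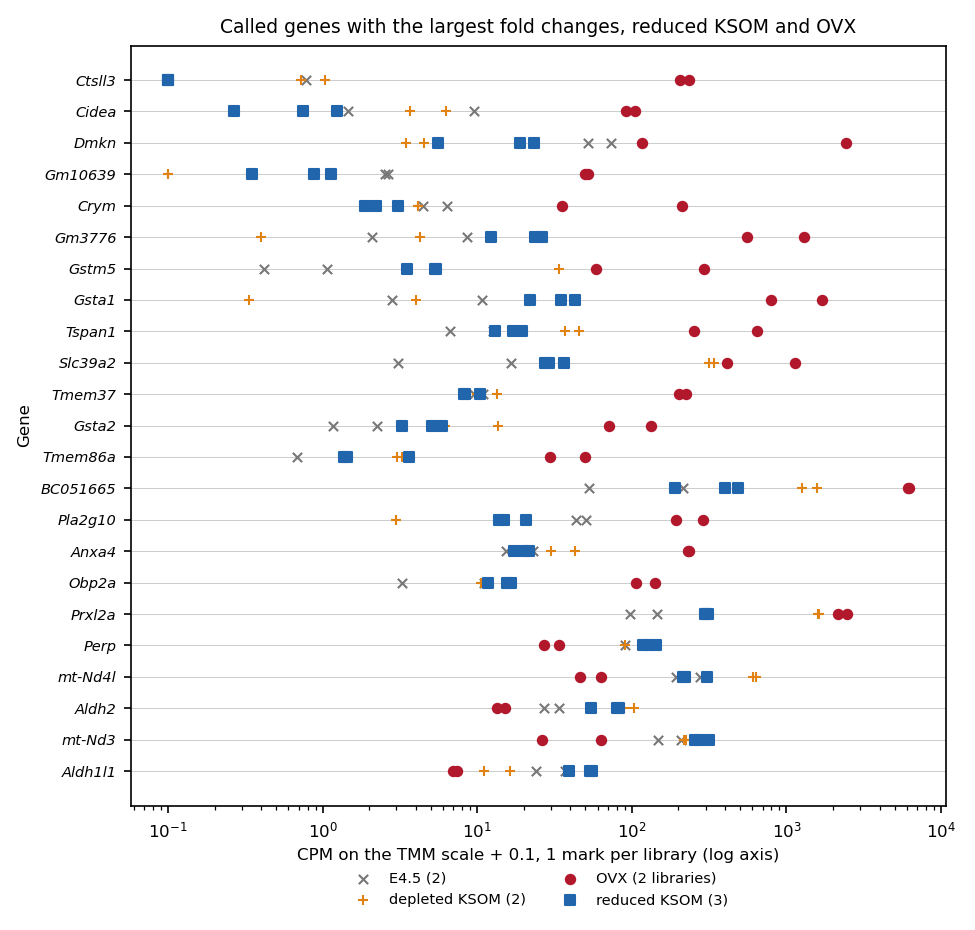
CPM on the TMM scale plus 0.1 (log axis) of the 5 higher genes and the 18 lower genes with the largest fold changes, 1 mark per library. OVX (red circles) and reduced KSOM (blue squares) do not overlap in any of them, and E4.5 (grey crosses) and depleted KSOM (orange plus signs) are shown for reference.

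Tmem37 had the smallest p of the called genes. It encodes a membrane protein related to calcium channel gamma subunits and lies on chromosome 1 (120067377 to 120074074, minus strand, GRCm38). It measured 222 and 201 CPM in OVX and 8.18, 8.04 and 10.3 CPM in reduced KSOM. The replicates were close and the groups far apart, a 23.9-fold lower level in reduced KSOM (log2 fold change -4.58, SE 0.44, adjusted p = 0.00294). Tmem37 was called in 12 of 14 alternative settings, the most of any gene, and its level in reduced KSOM was that of E4.5 (10.8 and 9.37 CPM).

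Slc15a2 encodes a proton-coupled transporter of small peptides. Its level was 505 and 391 CPM in OVX and 59.7, 64.5 and 78.2 CPM in reduced KSOM, 6.64-fold lower (log2 fold change -2.73, SE 0.35, adjusted p = 0.0142). The zinc importer gene Slc39a2 measured 409 and 1135 CPM in OVX and 28.8, 27.5 and 36.4 CPM in reduced KSOM, a 25.0-fold difference (SE 0.60 in log2, adjusted p = 0.0142). The OVX replicates of Slc39a2 differed from each other, but both lay above every reduced KSOM library. Its log2 fold change was -5.21 without OVX replicate 1 and -3.73 without replicate 2. A second zinc importer gene, Slc39a1, was at 38.2 and 105 CPM in OVX and 9.73, 10.5 and 16.2 CPM in reduced KSOM, and fell by 2.56 on the log2 scale (SE 0.42, adjusted p = 0.0277). Without OVX replicate 2 its log2 fold change was -1.65 and it was not called (adjusted p = 0.173). Of its 50-base transcript stretches 21.8% also occur in the pseudogene Slc39a1-ps. Slc44a4, of the choline transporter-like family, fell by 2.15 (SE 0.38, adjusted p = 0.0442), and by 1.48 without OVX replicate 2, where it was not called.

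The list of 27 amino acid transporters showed no call with edgeR, against 3 higher and 4 lower at an unadjusted p under 0.05. Its median log2 fold change was 0.29, with 16 members above 0. DESeq2 called 3 of them lower and limma none, and edgeR called 2 lower without OVX replicate 1. The members with the smallest p were Slc6a14, a broad neutral and basic amino acid transporter (65.7 and 156 CPM in OVX, 16.5, 14.9 and 21.8 CPM in reduced KSOM, adjusted p = 0.0727), and Slc1a1, a glutamate transporter (143 and 179 CPM against 48.6, 31.0 and 41.4 CPM, adjusted p = 0.0884). Both were lower in each reduced KSOM library than in either OVX library without passing the test.

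Anxa4, a calcium-dependent membrane-binding annexin, was at 233 and 231 CPM in OVX and 17.1, 19.9 and 21.5 CPM in reduced KSOM. It was 11.9-fold lower (log2 fold change -3.57, SE 0.48, adjusted p = 0.0163), and its reduced KSOM range overlapped the E4.5 values of 22.8 and 15.3 CPM. The tetraspanin genes Tspan1 and Tspan8, whose products organise membrane proteins, fell by 4.78 (SE 0.74, adjusted p = 0.0242) and 2.10 (SE 0.33, adjusted p = 0.0242) on the log2 scale. Tspan8 measured 5404 and 4059 CPM in OVX and 976, 1175 and 1164 CPM in reduced KSOM. Tspan8 was above its E4.5 values of 272 and 436 CPM in every reduced KSOM library (log2 fold change over E4.5 1.64, adjusted p = 0.0444).

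Dmkn, the secreted epithelial protein dermokine, measured 2420.4 and 116 CPM in OVX and 23.2, 18.7 and 5.45 CPM in reduced KSOM. Its log2 fold change of -6.33 (SE 0.96, adjusted p = 0.0242) was decided by OVX replicate 1, being -2.88 without it, where it was still called. Pla2g10, a secreted phospholipase, fell by 3.88 (SE 0.59, adjusted p = 0.0242), and Obp2a, a lipocalin, by 3.08 (SE 0.47, adjusted p = 0.0242). Tinagl1, which encodes a basement membrane protein, was at 158 and 434 CPM in OVX and 39.2, 53.8 and 32.1 CPM in reduced KSOM, 7.10-fold lower (adjusted p = 0.0242). The difference was 10.5-fold without OVX replicate 1 and 3.79-fold without replicate 2, where it was not called (adjusted p = 0.0844). Nid1, another basement membrane gene, was 3.74-fold lower (adjusted p = 0.033), and 2.85-fold and not called without OVX replicate 2 (adjusted p = 0.183). Myo1e, an unconventional myosin gene, was 4.61-fold lower (adjusted p = 0.0163). Actr2, a subunit of the actin-branching complex, was at 1153 and 542 CPM in OVX and 186, 219 and 232 CPM in reduced KSOM, 3.98-fold lower (adjusted p = 0.0413). It was not called without OVX replicate 1 (2.56-fold, adjusted p = 0.0736) or with median-of-ratios scaling (adjusted p = 0.0518).

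A pair of cathepsin L-like genes beside each other on chromosome 13 were among the lower calls. BC051665 was at 6184 and 6093 CPM in OVX and 190.4, 399.6 and 482 CPM in reduced KSOM, 17.2-fold lower (log2 fold change -4.10, SE 0.56, adjusted p = 0.0163). Ctsll3 was at 206 and 235 CPM in OVX and had no count in any reduced KSOM library. Set against a floor of 3 counts per library it was at least 3281-fold lower (adjusted p = 0.0271). E4.5 and depleted KSOM libraries held at most 0.931 CPM of Ctsll3. Only 2.59% of the 50-base stretches of Ctsll3 transcripts occur in BC051665, so most of each gene can be told from the other.

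Prxl2a, a peroxiredoxin-like redox protein, measured 2476 and 2151 CPM in OVX and 298, 312 and 302 CPM in reduced KSOM. It was 7.61-fold lower (log2 fold change -2.93, SE 0.34, adjusted p = 0.0109) with tight replicates on both sides. Its reduced KSOM level was above the E4.5 values of 96.6 and 145 CPM and far under the 1595 and 1624 CPM of depleted KSOM. The list of 29 oxidant defence genes held no call, with 3 higher and 4 lower at an unadjusted p under 0.05, 16 members above 0 and a median log2 fold change of 0.07.

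Glutathione transferases join glutathione to reactive compounds. Of 23 such genes, 3 fell and none rose. Gsta1 measured 1703 and 790.5 CPM in OVX and 34.9, 42.9 and 21.9 CPM in reduced KSOM (log2 fold change -5.23, SE 0.93, adjusted p = 0.0465). Gsta2 was at 133 and 70.6 CPM against 5.81, 4.96 and 3.17 CPM (log2 fold change -4.45, SE 0.57, adjusted p = 0.0142). Gstm5 was at 58.9 and 294 CPM against 3.40, 5.21 and 5.28 CPM (log2 fold change -5.25, SE 0.81, adjusted p = 0.0242), and was not called without OVX replicate 2 (log2 fold change -3.67, adjusted p = 0.0652). The median log2 fold change of the 23 was 0.54, with 15 members above 0. Gstp2 (24.6 and 55.8 CPM in OVX, 148, 108 and 140.4 CPM in reduced KSOM, adjusted p = 0.284) and Gsto1 (269 and 120 CPM against 648, 308 and 286 CPM, adjusted p = 0.473) were higher in every reduced KSOM library without passing the test.

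The alpha class values are uncertain as single genes because the copies share sequence. In GENCODE transcripts, 90.5% of the 50-base stretches of Gsta1 occur in another gene, and 75.7% in Gm3776. The share was 49.8% for Gsta2 and 92.5% for Gm3776. Gm3776 and Gm10639, predicted genes of the same cluster on chromosome 9, were also called lower, by 5.48 (SE 0.94) and 6.21 (SE 1.04) on the log2 scale. Reads may have been divided among the 4 copies by the authors' counting, so the size of each fall is uncertain. All 4 were lower in reduced KSOM than in OVX, but they did not move together in depleted KSOM. There Gsta2 was at 13.5 and 6.06 CPM and Gm10639 had no count. Gstm5 shares 9.44% of its stretches, all with an antisense transcript, and the counting is not stated to use strand.

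The 250 bases before the RefSeq start (GRCm38.p6) are printed for Tmem37, the most often called gene, and for the 3 called glutathione transferases. They were searched on both strands for TGACNNNGC, the core of the antioxidant response element, for GCCNNNGGC, a site of AP-2 factors, and for GGAATG, a site of TEAD factors. Capitals mark matches of any of these motifs.
Tmem37, chr1:120073781-120074030, minus strand: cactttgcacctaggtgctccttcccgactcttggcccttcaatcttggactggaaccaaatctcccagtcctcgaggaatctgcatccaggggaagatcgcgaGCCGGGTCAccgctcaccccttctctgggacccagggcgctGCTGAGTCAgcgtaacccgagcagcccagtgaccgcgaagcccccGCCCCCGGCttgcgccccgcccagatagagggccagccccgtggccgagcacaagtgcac
Gstm5, chr3:107895604-107895853, plus strand: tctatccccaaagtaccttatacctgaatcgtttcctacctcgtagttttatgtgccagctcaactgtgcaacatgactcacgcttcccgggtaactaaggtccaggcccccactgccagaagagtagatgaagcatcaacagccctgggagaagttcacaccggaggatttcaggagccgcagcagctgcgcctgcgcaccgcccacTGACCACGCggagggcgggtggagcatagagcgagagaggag
Gsta1, chr9:78230419-78230668, plus strand: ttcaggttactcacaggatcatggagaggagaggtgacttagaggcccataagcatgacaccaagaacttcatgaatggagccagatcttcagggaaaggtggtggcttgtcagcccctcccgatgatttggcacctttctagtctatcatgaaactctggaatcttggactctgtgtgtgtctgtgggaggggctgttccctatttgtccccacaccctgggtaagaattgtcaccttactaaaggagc
Gsta2, chr9:78347146-78347395, minus strand: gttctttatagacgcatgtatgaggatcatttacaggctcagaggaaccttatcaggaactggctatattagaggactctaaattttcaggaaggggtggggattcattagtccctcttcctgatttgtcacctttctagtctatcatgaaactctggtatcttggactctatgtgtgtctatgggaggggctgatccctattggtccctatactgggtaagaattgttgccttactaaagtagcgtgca

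The Tmem37 window held 2 matches of the antioxidant core and 1 of the AP-2 site, and the Gstm5 window 1 match of the antioxidant core. The Gsta1 and Gsta2 windows held no match of the 3 motifs. The Gsta2 window, set by the RefSeq start, lies inside the span the authors gave for the gene (78331018 to 78355788, minus strand). The stretch before the start of that span was not searched. Promoters were found for 31 of the 39 lower genes, and 10 of them (32.3%) held the antioxidant core in at least 1 promoter, against 13.6% of 13340 tested genes with a promoter. The AP-2 site was held by 16.1% against 22.0%, and the TEAD site by 9.68% against 13.3%. Matches in a window are a description of letters and not of factor binding.

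Lipid handling genes were represented by Cidea, which fuses lipid droplets. Cidea was at 105 and 91.6 CPM in OVX and 0.168, 1.13 and 0.646 CPM in reduced KSOM. It was 152-fold lower (log2 fold change -7.25, SE 1.05, adjusted p = 0.0242), with E4.5 in between at 9.46 and 1.36 CPM. It was the single call among 15 tested genes of lipid droplets and lipolysis, whose median was -0.05. Soat1, which esterifies cholesterol, was 4.58-fold lower (SE 0.33 in log2, adjusted p = 0.0242). Among 21 genes of sterol synthesis and uptake none passed, and 4 were lower at an unadjusted p under 0.05, with 1 call by DESeq2 and none by limma.

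The outer epithelium of the blastocyst, the trophectoderm, forms tight junctions and pumps fluid into the cavity. Of 27 tested trophectoderm genes Tspan8 alone passed, while 11 were lower and 1 higher at an unadjusted p under 0.05. The list's median log2 fold change was -0.57, against 0.08 over all genes, and stayed below 0 in all 14 alternative settings (-0.77 to -0.29). DESeq2 called 6 members lower and 1 higher, and limma 1 lower. Members short of the threshold included the transcription factor genes Eomes (105 and 165 CPM in OVX, 21.8, 17.9 and 29.6 CPM in reduced KSOM, adjusted p = 0.204) and Gata3 (217 and 329 CPM against 109, 132 and 119 CPM, adjusted p = 0.183). The keratin gene Krt18 pointed the other way, at 5342 and 6488 CPM in OVX and 18738, 15522 and 9775 CPM in reduced KSOM (adjusted p = 0.369). Cdx2 was not lower either (log2 fold change 0.43, adjusted p = 0.735). In all, 18 members were below 0 and 9 above. Summed CPM of the list on library totals overlapped between the groups, at 11223 and 23565 in OVX and 23447, 22354 and 13615 in reduced KSOM.

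None of 26 tested genes for fluid transport and junctions passed, with 3 higher and 8 lower at an unadjusted p under 0.05, 2 higher and 7 lower by DESeq2 and none by limma. The median was -0.57. The tight junction genes Cldn4 (339 and 1886 CPM in OVX, 209, 122 and 181 CPM in reduced KSOM, adjusted p = 0.0674) and Cgn (83.3 and 96.5 CPM against 24.4, 17.9 and 21.3 CPM, adjusted p = 0.0911) had the smallest p. The plakoglobin gene Jup (9.97 and 14.1 CPM against 33.9, 42.9 and 26.9 CPM, adjusted p = 0.202) was higher in each reduced KSOM library. In bulk embryos, fewer cells of a type and less RNA per cell cannot be told apart.

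Both epithelial lists, which share Cldn4 and Cldn6, had medians further below 0 against OVX replicate 2 alone than against replicate 1 alone. The trophectoderm median was -0.501 without OVX replicate 1 and -0.286 without replicate 2. For the junction list these medians were -0.899 and -0.170. Over all tested genes the median was 0.167 without OVX replicate 1 and 0.202 without replicate 2. A marker list of the uterine epithelium, outside the embryo, moved with both epithelial lists. Its 13 tested genes had a median of -0.50, with 8 below 0 and 3 lower at an unadjusted p under 0.05, and 5 were lower with no overlap of the groups, against 13.8% of all genes. Summed CPM of this list was 230.1 and 707 in OVX and 261, 353 and 269 in reduced KSOM, so OVX replicate 2 stood above the others. Its part in the trophectoderm and junction results was not tested.

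Among 30 epiblast and naive pluripotency genes none passed, at 3 higher and 4 lower unadjusted, and DESeq2 called 1 in each direction and limma none. Sall4, a transcription factor of pluripotent cells, had the smallest p (119 and 386 CPM in OVX, 47.7, 43.1 and 63.2 CPM in reduced KSOM, adjusted p = 0.0645). Among 27 primitive endoderm genes none passed either, with 3 higher and none lower unadjusted, 2 higher by DESeq2 and none by limma. The megalin gene Lrp2 measured 27.9 and 25.0 CPM in OVX and 113, 108 and 83.8 CPM in reduced KSOM (adjusted p = 0.175), under its 414 and 385 CPM in E4.5.

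Gsk3b, a kinase that restrains WNT signalling and glycogen synthesis, measured 242 and 197 CPM in OVX and 67.3, 72.4 and 67.9 CPM in reduced KSOM, and was 3.17-fold lower (log2 fold change -1.66, SE 0.28, adjusted p = 0.0322). The linker histone gene H1f0 was 5.29-fold lower (SE 0.43 in log2, adjusted p = 0.0465), and 3.39-fold and not called without OVX replicate 2 (adjusted p = 0.2). Gch1, the rate-limiting enzyme of tetrahydrobiopterin synthesis, was at 218 and 296 CPM in OVX and 62.5, 65.9 and 29.7 CPM in reduced KSOM (log2 fold change -2.29, SE 0.40, adjusted p = 0.0413). Gch1 lower and Aldh2 higher were the calls among 15 tested genes of tetrahydrobiopterin, GABA and aldehyde metabolism, whose median was 0.06. The gene of the feedback regulator of Gch1, Gchfr, measured 642 and 396 CPM in OVX and 414, 396 and 401 CPM in reduced KSOM and did not pass (adjusted p = 0.737), against 3.75 and 5.36 CPM in E4.5.

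The 5 higher calls were enzymes, a junction protein and mitochondrially encoded subunits. Aldh2, the mitochondrial aldehyde dehydrogenase, was at 15.0 and 13.3 CPM in OVX and 80.5, 82.6 and 54.1 CPM in reduced KSOM. It was 5.12-fold higher (log2 fold change 2.36, SE 0.35, adjusted p = 0.0242), and the E4.5 values of 33.9 and 27.0 CPM lay between the groups. Aldh1l1, which oxidises formyl-tetrahydrofolate, was at 7.29 and 6.84 CPM in OVX and 39.0, 55.0 and 53.5 CPM in reduced KSOM, 6.96-fold higher (log2 fold change 2.80, SE 0.42, adjusted p = 0.0242). Of its transcript stretches, 8.80% lie antisense to another gene. Perp, a membrane protein of cell junctions and a p53 target, was at 26.7 and 33.9 CPM in OVX and 117, 143 and 126 CPM in reduced KSOM (log2 fold change 2.09, SE 0.32, adjusted p = 0.0242). It was the single call among 20 p53 target genes, and was not called without OVX replicate 1.

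The mitochondrial genome encodes 13 proteins, all subunits of the respiratory chain and ATP synthase. Every one of these mRNAs was higher in each reduced KSOM library than in either OVX library. That pattern was shown by 16.8% of all tested genes. The subunit genes mt-Nd3 and mt-Nd4l passed the test. All 13 had an unadjusted p under 0.05, against 956 of all 21808 tested genes that were higher at that level. mt-Nd3 was at 63.3 and 26.2 CPM in OVX and 272, 317 and 257 CPM in reduced KSOM, 6.31-fold higher (log2 fold change 2.66, SE 0.42, adjusted p = 0.0244). mt-Nd4l was at 62.6 and 45.9 CPM against 214, 304 and 219 CPM, 4.53-fold higher (log2 fold change 2.18, SE 0.33, adjusted p = 0.0242). The list's median log2 fold change was 1.24 and stayed between 1.05 and 1.57 in the alternative settings. DESeq2 called 8 of the 13 higher and limma 2, and edgeR called 4 when OVX replicate 1 was left out. None was called without OVX replicate 2, without any one of the reduced KSOM replicates, in the fit of the 5 libraries alone or with the replicate number as a block. The log2 fold change of mt-Nd3 was 3.42 without OVX replicate 1 and 2.16 without replicate 2.

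Short of the threshold, the oxidase subunit gene mt-Co2 had the smallest adjusted p of the others (0.0564), at 1646 and 1695 CPM in OVX and 4239, 5889.6 and 5266 CPM in reduced KSOM. The cytochrome gene mt-Cytb was at 4281 and 2963 CPM against 7010, 7899 and 11632 CPM (adjusted p = 0.243). Mitochondrially encoded transcripts took 2.29% and 2.57% of counts in OVX, 4.12%, 6.05% and 6.26% in reduced KSOM, and 5.06% and 6.69% in E4.5. The share in reduced KSOM was thus near that of E4.5 and under the 12.2% and 13.2% of depleted KSOM. These shares are of library totals. On the TMM scale the 13 mRNAs had a median log2 fold change over E4.5 of 0.66 in reduced KSOM and -0.97 in OVX. Of the 50-base stretches of mt-Nd3, 98.0% also occur in the nuclear copy Gm28438, and of mt-Nd4l 98.8% in Gm10222, so reads could have been divided between them.

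The nuclear subunits of the respiratory complexes were not called. None of 36 complex I subunits passed, none had an unadjusted p under 0.05 and neither DESeq2 nor limma called any. Their median was -0.12, and it was 0.81 without OVX replicate 1 and -0.59 without OVX replicate 2. For 36 subunits of complexes III to V the median of -0.05 became 0.97 and -0.55, and for 80 cytosolic ribosomal protein genes the median of 0.12 became 0.70 and -0.31. The sign of these 3 lists thus depended on which OVX library was used. The median of the mitochondrially encoded mRNAs was above 0 with either left out. That follows from all 13 being higher in each reduced KSOM library than in either OVX library, and is no separate result.

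**Figure D4:**
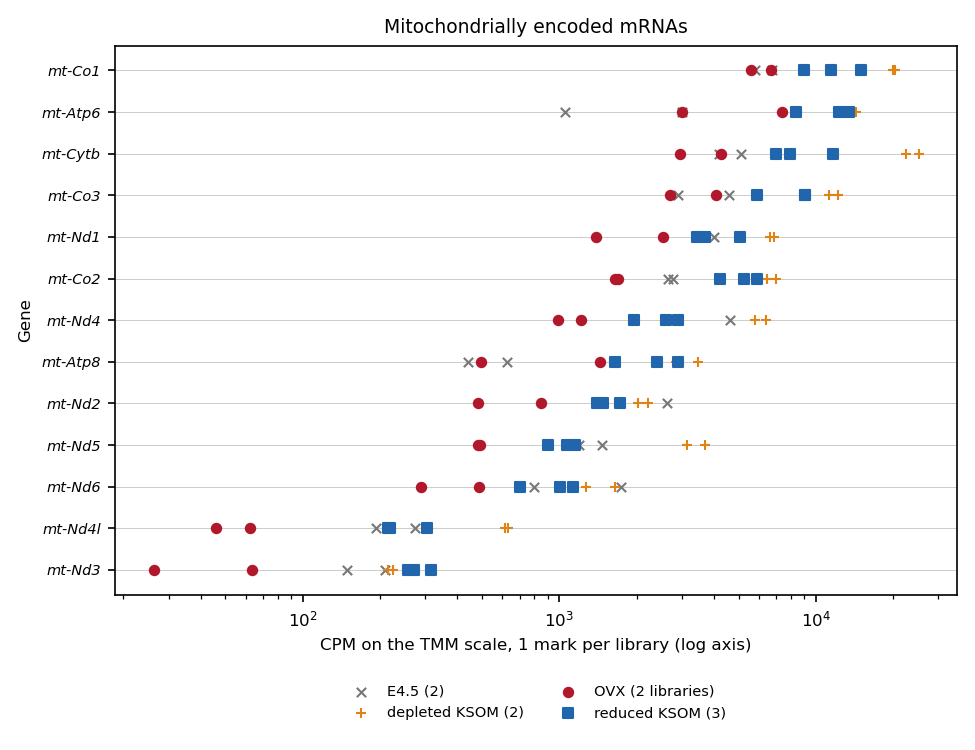
CPM on the TMM scale (log axis) of the 13 mitochondrially encoded mRNAs, 1 mark per library. The reduced KSOM libraries (blue squares) lie above both OVX libraries (red circles) in all 13 genes, a pattern of 16.8% of all tested genes.

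Proliferation genes did not pass the test, although most were above 0. Of 51 mitotic genes 50 had a positive log2 fold change, with a median of 0.77, none called by edgeR, 8 higher at an unadjusted p under 0.05, 3 higher by DESeq2 and none by limma. The cyclin gene Ccna2 was at 24.7 and 18.3 CPM in OVX and 67.3, 77.7 and 71.0 CPM in reduced KSOM (adjusted p = 0.323), under its E4.5 values of 89.1 and 99.8 CPM. The mitotic median was 1.61 without OVX replicate 1 and 0.32 without OVX replicate 2. The mean log2 CPM of the mitotic genes, less that of all tested genes, was 4.40 in OVX replicate 1 and 2.93 in OVX replicate 2. In reduced KSOM it was 4.19, 4.46 and 4.35, a range that holds OVX replicate 1. Of 52 DNA replication and G1/S genes 41 were above 0, with a median of 0.33, none called, 3 higher unadjusted, 1 by DESeq2 and none by limma. Of 35 proteasome subunits 29 were below 0, with a median of -0.38, none called, 7 lower unadjusted, 2 by DESeq2 and none by limma.

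No gene of glucose use was called with all 5 libraries. Of 23 genes of glucose uptake, glycolysis and lactate, 2 were higher and 6 lower at an unadjusted p under 0.05, with 2 lower by DESeq2 and none by limma. Without OVX replicate 1 edgeR called 2 of them higher and none lower, Hk2 and Gapdh, a glycolytic dehydrogenase gene. Ldha, lactate dehydrogenase A, was at 120.1 and 183 CPM in OVX and 59.9, 63.6 and 57.0 CPM in reduced KSOM (log2 fold change -1.34, SE 0.38, adjusted p = 0.225). The lactate transporter gene Slc16a1 was at 26.4 and 59.9 CPM against 14.4, 17.6 and 19.6 CPM (adjusted p = 0.285), and the glucose transporter gene Slc2a3 at 332 and 475 CPM against 177, 240 and 229 CPM (adjusted p = 0.329). Each of the 3 was lower in all reduced KSOM libraries, while the hexokinase gene Hk2 was higher, at 949 and 301 CPM in OVX and 1478, 1002 and 1356 CPM in reduced KSOM (adjusted p = 0.488).

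Genes of nutrient sensing did not pass the test. Of 41 genes of mTORC1, its activators and its restraints none was called, with none higher and 3 lower at an unadjusted p under 0.05. Their median log2 fold change was -0.12, with 17 above 0. Mtor was at 12.1 and 12.6 CPM in OVX and 9.12, 8.66 and 11.3 CPM in reduced KSOM (adjusted p = 0.845). The amino acid stress factor Atf4 was at 46.5 and 70.6 CPM against 70.9, 69.6 and 93.9 CPM (adjusted p = 0.851), and its target Asns, asparagine synthetase, at 307 and 294 CPM against 248, 117 and 170 CPM (adjusted p = 0.557). The arginine and lysine transporter gene Slc7a3 measured 16.9 and 86.0 CPM in OVX and 12.3, 15.8 and 12.6 CPM in reduced KSOM (log2 fold change -1.92, SE 0.63, adjusted p = 0.318). It passed without OVX replicate 1 (log2 fold change -2.67, adjusted p = 0.0422). None of the 29 genes chosen for their place in diapause, nutrient sensing and lineage was called.

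**Figure D5:**
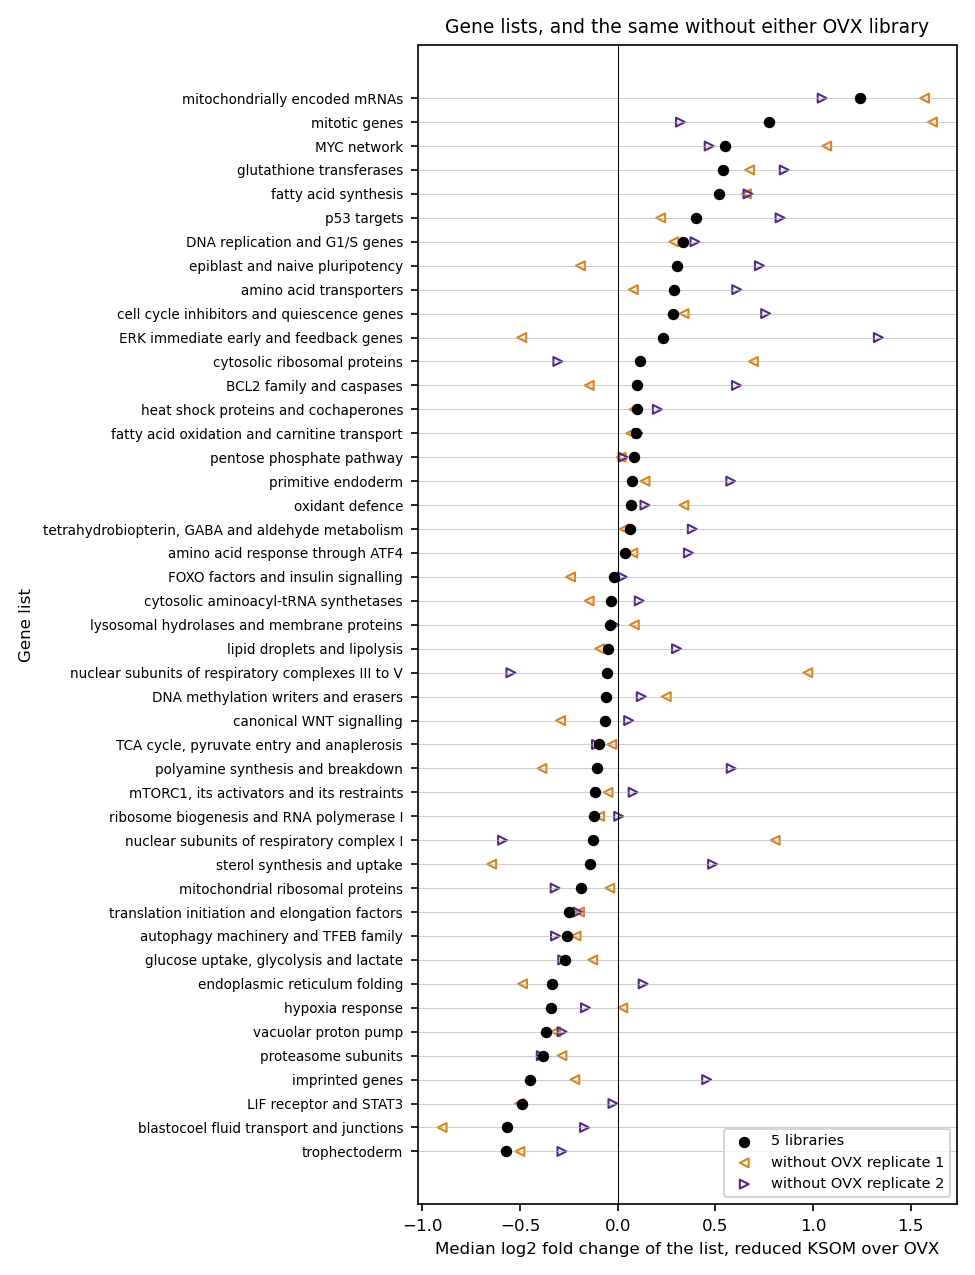
Median log2 fold change (reduced KSOM over OVX) of 45 gene lists with all 5 libraries (black), without OVX replicate 1 (orange) and without OVX replicate 2 (purple). The mitochondrially encoded mRNAs are highest at 1.24, and the trophectoderm and junction lists lowest at -0.57.

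Of the 45 lists of embryo functions, 38 held no call, over 1127 list memberships. In these 38, 56 members were higher and 108 lower at an unadjusted p under 0.05, a gene of several lists being counted in each. Over all 21808 tested genes 956 were higher and 1111 lower at that level. In the 38 lists DESeq2 called 24 higher and 35 lower, and limma called 1 higher and none lower. The median of 17 lists kept its sign in all 14 alternative settings, among them the mitochondrially encoded mRNAs, trophectoderm, junctions, mitosis, DNA replication and the proteasome. The settings reuse the same libraries, so a kept sign is no separate support. The sign was taken against 0, while the median of all genes itself reached 0.202 without OVX replicate 2.

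Beside E4.5 blastocysts, the lower calls were as a median high in OVX and level in reduced KSOM. The comparisons share libraries, and the 39 genes were chosen for their difference between reduced KSOM and OVX, so the values are set side by side as a description. The median log2 fold change of the 39 over E4.5 was 3.61 in OVX and -0.10 in reduced KSOM. Over all genes 445 (2.04%) were called between OVX and E4.5 and 247 (1.13%) between reduced KSOM and E4.5. Glipr1 was among the exceptions, at 399 and 639 CPM in OVX, 136, 167 and 177 CPM in reduced KSOM and 16.5 and 17.9 CPM in E4.5. It was called in both comparisons with E4.5, with log2 fold changes of 4.92 in OVX (adjusted p = 6.97e-05) and 3.22 in reduced KSOM (adjusted p = 0.00167).

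The other culture group was tested against reduced KSOM directly. Between reduced and depleted KSOM 1263 genes (5.79%) were called, and between depleted KSOM and OVX 148 (0.679%). Several genes that fell in reduced KSOM were lower there than in depleted KSOM too. Slc15a2 was at 541 and 621 CPM in depleted KSOM, with a log2 fold change of reduced over depleted of -3.11 (SE 0.35, adjusted p = 0.00271). Gsk3b was at 439 and 464 CPM (log2 fold change -2.70, SE 0.28, adjusted p = 0.00162), and Prxl2a also differed (log2 fold change -2.40, SE 0.34, adjusted p = 0.00599). Tmem37, by contrast, was at 9.87 and 13.2 CPM in depleted KSOM, which overlaps reduced KSOM (log2 fold change -0.38, SE 0.41, adjusted p = 0.604).

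Gsta1 was at 0.234 and 3.89 CPM in depleted KSOM, so that reduced KSOM lay above it (log2 fold change 4.01, SE 1.02, adjusted p = 0.0406) and below OVX. Gsta2 went the other way, at 13.5 and 6.06 CPM in depleted KSOM, above each reduced KSOM library without passing (log2 fold change of reduced over depleted -1.07, adjusted p = 0.244). Pla2g10, at 2.90 and 2.87 CPM in depleted KSOM, had the order of Gsta1 (log2 fold change of reduced over depleted 2.50, SE 0.63, adjusted p = 0.0382). Aldh1l1, at 10.9 and 16.3 CPM in depleted KSOM, was higher in reduced KSOM than in depleted KSOM (log2 fold change 1.85, SE 0.40, adjusted p = 0.0243), while Aldh2, at 88.5 and 103 CPM, did not pass (log2 fold change -0.41, SE 0.31, adjusted p = 0.445).

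With all 5 libraries, edgeR called none of the members of the 8 marker lists of other tissues. Without OVX replicate 1 it called 18 higher and 1 lower, of which 8 higher were muscle and 7 neutrophil genes. Their CPM are given on library totals. All 20 muscle genes had a positive log2 fold change with a median of 0.51, and none had an unadjusted p under 0.05. The myosin gene Myh4 was at 347 and 0.226 CPM in OVX and 281, 392 and 248 CPM in reduced KSOM. Of 20 neutrophil genes 16 had a positive log2 fold change with a median of 1.85, none with an unadjusted p under 0.05, and 15 were higher with no overlap of the groups, against 16.8% of all genes. Their granule gene Ngp was at 123 and 0 CPM in OVX and 379, 512 and 370.3 CPM in reduced KSOM. Limma called 6 neutrophil, 3 stromal and 1 uterine epithelial gene higher, and DESeq2 called 3 stromal genes higher and 1 uterine epithelial and 1 keratinocyte gene lower. Summed macrophage and lymphocyte genes stood at 623 and 20.1 CPM in OVX and 316, 407 and 332 CPM in reduced KSOM. With the test limited to genes of at least 5 CPM in both E4.5 libraries, 84 genes were called, 22 higher and 62 lower.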

How the data were processed

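RNA of whole blastocysts was sequenced after full-length cDNA amplification for ultra-low input, per the labels' protocols, without molecular identifiers, so duplicates made by amplification are counted as molecules. For every gene and library the authors deposited an estimated count, as whole numbers, and an FPKM value they computed, for a total of 31528 genes on GRCm38. The submitters' processing notes name cutadapt 1.9, HISAT2 2.0.4 and StringTie 1.3.4d. The annotation, the counting tool and the use of strand are not given in the sources used here.

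Groups were taken from the labels. All 13 libraries in 6 groups were fitted together, which gave 7 residual degrees of freedom, with filterByExpr (21808 genes kept), trimmed-mean (TMM) scaling and edgeR 4.0.16 quasi-likelihood tests in R 4.3.3. Adjusted p-values are Benjamini-Hochberg over all tested genes, called under 0.05. The SE of a log2 fold change is its size divided by the square root of F. CPM are on the TMM scale, and summed marker CPM on library totals. A floor of 3 counts per library served where a group had no count. DESeq2 1.42.0 and limma 3.58.1, on log2(FPKM + 1), were alternatives. The procedure was tested on simulated counts. Promoters were RefSeq windows, and sequence shared between genes was counted in GENCODE transcripts, with 1 called gene not matched by symbol. Figures were drawn with matplotlib 3.10.9 in Python 3.11.15.

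Named genes were 29 listed genes, up to 10 per direction by fold change among calls that averaged 4 or more in log2 CPM and had no overlap of the groups, up to 12 such genes with at least 5 CPM in both E4.5 libraries, and up to 4 calls per list by adjusted p. Other called genes and the uncalled members with the smallest p were named after their values were seen. The 53 lists held 1348 genes, 1324 of them tested. The groups compared, the lists and the genes were chosen with earlier results of these data known. The motifs were chosen after the calls were seen. Some single-gene values are left out of the text.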

Additional observations from a re-analysis of the deposited data

How the results depend on the processing

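The biological coefficient of variation was 0.896 over all 13 libraries, and library depth was 44027959 counts or more in the 5 libraries compared. The 44 calls became 42 with median-of-ratios scaling, 24 with library totals, 26 in a fit of the 5 libraries alone, 84 among genes of at least 5 CPM in both E4.5 libraries, 117 at a minimum mean of 5 CPM, 141 with limma on log2(FPKM + 1), 589 without a low-count filter and 721 with DESeq2. Leaving out 1 library each gave 0 to 229 calls. The share of calls higher in reduced KSOM, 11.4%, became 21.4% at the minimum mean of 5 CPM, 26.2% among the genes of at least 5 CPM in E4.5, 36.5% without a filter, 51.0% with DESeq2 and 61.7% with limma, and 0% to 36.7% with 1 library left out. The cause of these shifts was not tested. Without reduced KSOM replicate 1, 2 or 3 the adjusted p of the 44 genes was 0.0682 to 0.226, 0.0726 to 0.233 and 0.0448 to 0.245.

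Deviations of the libraries from their group means correlated at -0.046 to 0.046 between the groups. With 2 OVX libraries these deviations mirror each other, so the symmetric range is fixed and cannot decide whether replicate numbers pair the libraries. With the replicate number as a block, in which reduced KSOM replicate 3 has no OVX partner, 3 genes were called (Tmem37, BC051665 and Slc39a2) and 0% of them were higher. All of the 44 genes that were tested in a setting kept their direction there, in all 14 settings. The settings reuse the same libraries, whose groups do not overlap in these genes, so a kept direction is no separate support.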
